A study of Homo sapiens with 28 samples.

Results

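The data described here are the places where the transcription factor KLF5 was found on chromatin in GP5d cells, an established human colon adenocarcinoma line, after siRNA against RAD21 and after a control siRNA. All rows of both KLF5 peak lists were taken, 1781 peaks under siRAD21 and 7791 under control siRNA, which is 9572 of the 393268 peaks in the 22 peak lists of the series. The measurement was chromatin immunoprecipitation followed by sequencing (ChIP-seq), in which an antibody recovers cross-linked DNA and a peak is an interval where the sequenced tags pile up over the background. The siRAD21 cells had received 50 nM of siRNA against RAD21 and the control cells 50 nM of a control siRNA, both for 72 h per the labels' protocols. Each target had 1 library under each siRNA. The KLF5 antibody was a rabbit antibody, and each KLF5 list was called against the rabbit immunoglobulin G (IgG) library of the same siRNA. The siRAD21 KLF5 library was grouped by its title and description, since a separate siRNA tag in its labels names RAD30.

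KLF5 is a zinc finger factor of the Krüppel-like family that binds GC-rich DNA and is known in the intestine for its role in proliferating crypt epithelium and in colon cancer cells. Cohesin, of which RAD21 and SMC3 are subunits, is a ring-shaped complex that pairs sister chromatids and forms chromatin loops, NIPBL loads it onto DNA, and CTCF is the zinc finger protein at which many loops end. HNF4A is a nuclear receptor of intestinal epithelium, MYC a growth regulator, JUND a subunit of the AP-1 factor, REST a repressor of neuronal genes, RFX2 a factor of ciliary genes, and H3K4me1 a histone mark of enhancers and promoter flanks.

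The libraries differed in depth in the same direction as the peak numbers. The siRAD21 KLF5 library held 3286941 tags after repeated positions were filtered and the control KLF5 library 9257960, a ratio of 0.355. Repeated tags made up 31% of the siRAD21 library and 51% of the control library. The rabbit IgG library used as background held 4101535 tags under siRAD21 and 8916252 under control siRNA, a ratio of 0.460. With 1 library a side, a difference between the siRNAs had no replicate check and depth, antibody recovery and siRNA cannot be told apart. All intervals below are 95% intervals that cover counting error only. A control peak was called kept when it shared at least 1 bp with a siRAD21 KLF5 peak and was called lost when it did not, and a siRAD21 peak with no control KLF5 peak under it was called new. Lost therefore means absent from the siRAD21 list and not an absence of binding.

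Under siRAD21, 793 of the 7791 control KLF5 peaks were kept and 6998 were lost, a kept share of 10.2% (9.52 to 10.9, exact Clopper-Pearson interval). Over the other 10 targets together, 50.8% of control peaks were kept in the same sense. From the side of the siRAD21 list, 977 of the 1781 peaks were new, a share of 54.9% (52.5 to 57.2), and 804 were kept. Over the other 10 targets, 26.6% of siRAD21 peaks were new. Both pooled shares are weighted towards the long H3K4me1, CTCF and RAD21 lists, and single targets differed widely from them. The kept share of control peaks was 13.2% for RFX2 and 17.4% for NIPBL, and the siRAD21 peaks found in the control list made up 13.3% for JUND, 23.7% for RFX2 and 33.7% for NIPBL, against 45.1% for KLF5. The 804 kept siRAD21 peaks fell on 793 control peaks because 11 control peaks were overlapped by 2 or more siRAD21 peaks.

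Kept control peaks were wider and held more tags than lost ones. The median width was 1979 bp (interval 1915 to 2056) for kept peaks and 1449 bp (1435 to 1464) for lost peaks. The median number of tags per peak was 84 (78 to 88) for kept peaks and 36 (35 to 36) for lost peaks. The p score of a peak is −10 × log10 of the p-value that the authors' peak caller gave it, with 50 as the lowest value listed. Its median was 143 for kept and 74.6 for lost control peaks. Fold enrichment over IgG separated the classes less, with medians of 8.60 in kept and 7.60 in lost peaks. A false discovery rate (FDR) under 5% was listed for 92.1% of kept and 75.1% of lost peaks.

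New peaks were at the weak end of the siRAD21 list. They had a median of 9 tags, against 14 in the kept siRAD21 peaks, and the lowest tag number in the list was 8. Their median width was 920 bp, against 1128 bp for kept siRAD21 peaks, and their median p score was 65.3, against 74.9. Fold enrichment went the other way, with a median of 10.5 in new and 9.46 in kept siRAD21 peaks. An FDR under 5% was listed for 32.0% of new and 54.0% of kept peaks.

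**Figure D1:**
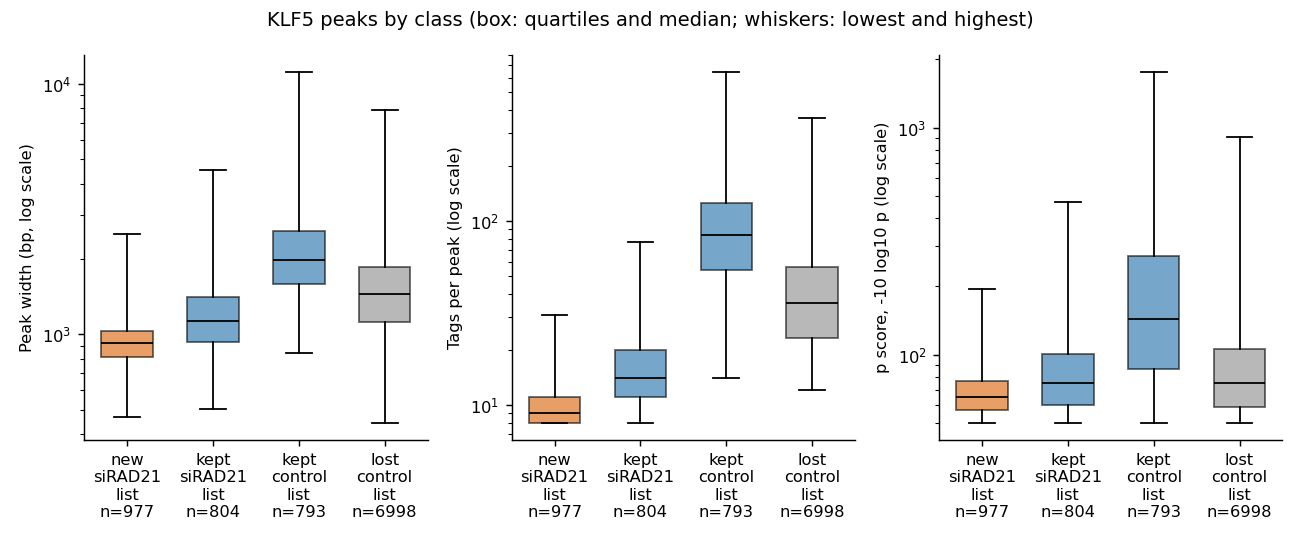
Width in bp, tags per peak and p score (all on log axes) of the new and kept peaks of the siRAD21 KLF5 list and the kept and lost peaks of the control KLF5 list, with boxes for the quartiles, a line for the median and whiskers for the lowest and highest peak. New peaks have the lowest median tags (9), and the kept control peaks the highest (84).

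The kept share climbed with the strength of the control peak on every scale. Of control peaks under 25 tags, 22 of 2065 were kept (1.07%), and of those from 25 to below 50 tags 4.75% were kept. The share was 16.1% from 50 to below 100 tags, 34.3% from 100 to below 200 and 63.8% from 200 to below 400. All 10 control peaks with 400 or more tags were kept (interval 69.2 to 100%). By p score the share was 3.84% from 50 to 75 and 64.5% from 400 upwards. By width it was 1.34% below 1000 bp and 40.7% at 4000 bp and above. By fold enrichment it stayed between 7.88% and 8.26% in the 3 classes below 10 and reached 39.1% from 20 upwards. The siRAD21 library held 0.355 times the filtered tags of the control library, and the lowest siRAD21 peak had 8 tags. The weakest control peaks, from 12 tags, fall below that floor when scaled by depth. The part of depth and floor in this climb was not tested.

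Ranked by p score, 10 of the 10 strongest control peaks were kept, then 23 of 25, 39 of 50, 72 of 100 and 220 of 500. In the siRAD21 list, none of the 25 strongest peaks was new (interval up to 13.7%), 3 of the 50 strongest were, and 12 of the 100 strongest were. New peaks made up 63.7% of siRAD21 peaks with p scores from 50 to 75, and 7.14% (3 of 42) from 150 to 200. No siRAD21 peak with 50 or more tags was new (0 of 15).

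**Figure D2:**
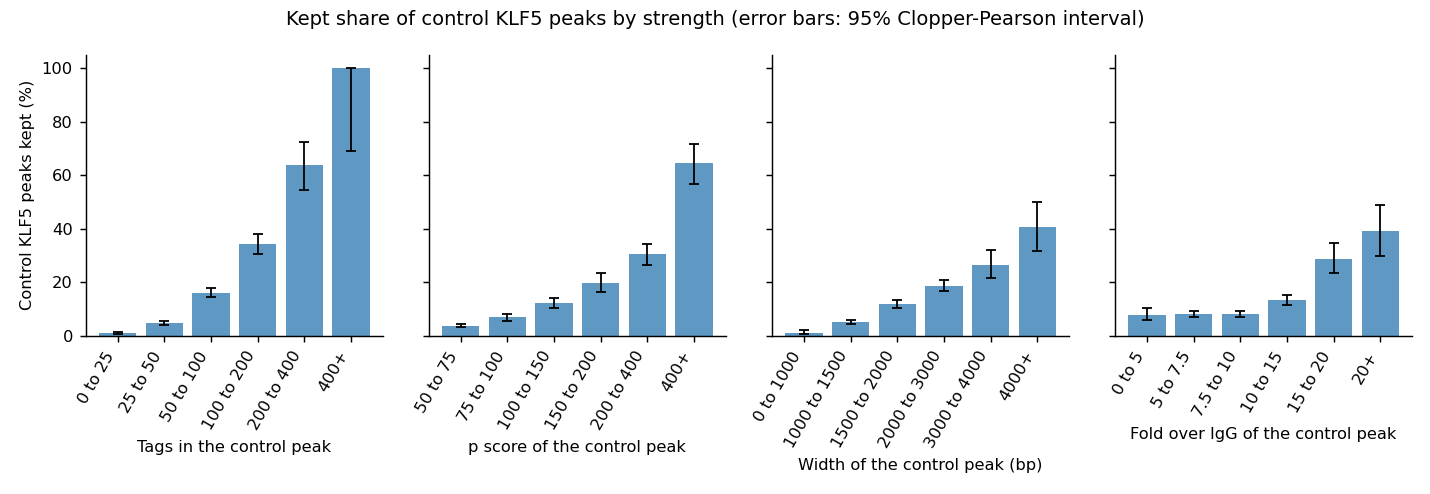
Percentage of control KLF5 peaks kept under siRAD21 in classes of tags, p score, width and fold enrichment of the control peak, with 95% Clopper-Pearson intervals as error bars. The share runs from 1.07% below 25 tags to 100% at 400 tags and above, while it is flat over fold enrichments below 10.

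At kept sites the siRAD21 peak was smaller and lay inside the control peak. In 783 of the 804 overlapping pairs (97.4%) the siRAD21 peak was the narrower, and 634 siRAD21 peaks (78.9%) lay wholly within the control peak. The median distance between the summits was 95.5 bp (quartiles 39.75 and 215), and 77.7% of pairs had summits within 250 bp of each other. Across pairs, which share both libraries, Spearman's rho was 0.68 for tags and 0.23 for p scores.

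The tag numbers can be set against the depth of the libraries. The pairs had a median of 14 tags under siRAD21, against 84 under control siRNA, and 84 tags times the depth ratio of 0.355 is 29.8. The lost peaks' median of 36 tags comes to 12.8 on that scale, and 4096 of the 6998 lost peaks (58.5%) reach the siRAD21 list's median of 11 tags when scaled in this way. Of the 753 control peaks with at least 100 tags, which is 35.5 when scaled, 454 were lost, and 47 siRAD21 peaks had that many tags. Of the 126 control peaks with at least 200 tags, or 71.0 when scaled, 42 were lost, and 1 siRAD21 peak reached that number. This scaling rests on total tags alone and takes no account of how much of each library lies in peaks. The tags were also counted over unlike intervals. The median width in pairs was 1128 bp under siRAD21 and 1990.5 bp under control siRNA.

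Lost peaks were seldom near misses. A siRAD21 KLF5 peak lay within 1000 bp of 62 lost peaks (0.886%) and within 10000 bp of 437 (6.24%). A control KLF5 peak lay within 1000 bp of 29 new peaks (2.97%) and within 10000 bp of 152 (15.6%). The median gap to the other list was 71766.5 bp for new peaks and 273266 bp for lost peaks, lists of very different size. Another control KLF5 peak stood within 10000 bp of 33.4% of kept and 22.4% of lost control peaks. To compare peaks of similar strength, the control list was divided by p score into 5 strata of about equal size, and within strata that difference was 6.59 percentage points (3.05 to 10.1).

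The strongest kept peak lay on chromosome 22 from 43484005 to 43486804 (hg18, as all coordinates here). Its siRAD21 peak had 68 tags and its control peak 417, with summits 50 bp apart. NIPBL, H3K4me1 and HNF4A peaks were found there under both siRNAs, and JUND and MYC peaks under siRAD21 but not under control siRNA. The second lay on the same chromosome from 49080626 to 49087604, with 39 tags under siRAD21 and 484 under control siRNA, and its fold enrichment was 7.39 under siRAD21, against 13.59. RAD21, NIPBL and H3K4me1 were found there under both siRNAs, CTCF under siRAD21 only, and HNF4A, JUND and MYC under control siRNA only. The third, on chromosome 8, had 77 tags under siRAD21 and 635 under control siRNA, but its summits were 4942 bp apart within a control peak 7207 bp wide, so that the 2 summits need not mark the same site. NIPBL was the one other target there under control siRNA, against 7 targets under siRAD21.

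The fourth, on chromosome 1 from 1046194 to 1051638, had 39 tags under siRAD21 and 413 under control siRNA. Other targets found there numbered 6 under siRAD21 and 7 under control siRNA, RAD21 and SMC3 among them under both. The fifth, on chromosome 19 from 701448 to 704796, had 65 tags under siRAD21 and 408 under control siRNA, with summits 24 bp apart. Its other targets were NIPBL, CTCF, H3K4me1 and HNF4A under both siRNAs, with JUND added under siRAD21. In all 5 regions the siRAD21 tags were below the control tags times 0.355. The siRAD21 peak was also the narrower in each, so these tags were counted over unlike intervals.

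The strongest lost peaks had between 151 and 324 control tags. The strongest of them, on chromosome 19 from 13810455 to 13814387, held 324 tags and ranked 15th in the control list. H3K4me1 and MYC were found there under both siRNAs, and SMC3 and NIPBL under control siRNA only. The second, on chromosome 7 from 150452827 to 150455599, held 166 tags at a fold enrichment of 32.57. Under both siRNAs there were peaks of RAD21, SMC3, CTCF and H3K4me1, so the cohesin subunits stayed in the lists where KLF5 did not. The third, on chromosome 2 from 159711587 to 159713262, held 177 tags in 1676 bp, and NIPBL, H3K4me1 and MYC were found there under both siRNAs. The fourth, on chromosome 20 from 60605516 to 60607580, held 166 tags, and H3K4me1 alone was found there under siRAD21, against NIPBL, H3K4me1 and MYC under control siRNA. The fifth, on chromosome 7 from 75194788 to 75196827, held 151 tags, and H3K4me1 alone was found there under siRAD21, against 6 targets under control siRNA.

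The strongest new peaks had 16 to 28 tags. The first, on chromosome 14 from 20921094 to 20923179, had 22 tags and a fold enrichment of 26.4, and 7 other targets were found there under siRAD21, against SMC3, NIPBL, H3K4me1 and MYC under control siRNA. The second, on chromosome 7 from 157636234 to 157637226, had 17 tags in 993 bp at a fold enrichment of 36.4, with 7 other targets under siRAD21 and H3K4me1 and HNF4A under control siRNA. The third, on chromosome 5 from 154041825 to 154043325, had 28 tags, with 7 other targets under siRAD21 and CTCF and H3K4me1 under control siRNA. The fourth, on chromosome 16 from 86432898 to 86434280, had 19 tags and 5 other targets under siRAD21, against HNF4A and MYC under control siRNA. The fifth, on chromosome 19 from 50650463 to 50651498, had 16 tags and 5 other targets under siRAD21, against H3K4me1 and MYC under control siRNA. NIPBL, H3K4me1, HNF4A and MYC were found at all 5 under siRAD21, and each region had more targets under siRAD21 than under control siRNA. These 5 are not typical of the class. Over all 977 new peaks, NIPBL was found under siRAD21 at 24.7%, H3K4me1 at 63.4%, HNF4A at 20.5% and MYC at 24.3%.

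Some sites stood apart in their other targets. The strongest kept peak with no other target under control siRNA lay on chromosome 4 from 1585741 to 1588168, with 36 tags under siRAD21 and 200 under control siRNA, and H3K4me1 alone was found there under siRAD21. The strongest lost peak with no other control target lay on chromosome 9 from 137219592 to 137222213, with 120 tags, and no target was found there under siRAD21 either. The 3 control peaks named for the most other targets had 9 of the 10, all but RFX2. Those on chromosome 1 (33456651 to 33460299) and chromosome 19 (48979711 to 48981923) were kept with 15 and 16 siRAD21 tags, and the one on chromosome 22 (35922068 to 35926399) was lost at 97 control tags. At the border of the rule, the smallest overlaps were 117 bp on chromosome 11 (17457432 to 17458485) and 155 bp on chromosome 12 (52674819 to 52677222), with summits 1124 and 1681 bp apart. The smallest gaps of lost peaks were 12 bp (45532533 to 45534363) and 14 bp (4753334 to 4754657), both on chromosome 17.

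Under control siRNA, the cohesin subunits were found less often at kept than at lost KLF5 peaks of similar strength, while for 7 of the other 8 targets the interval of the difference held 0. SMC3 peaks of control siRNA were found at 33.4% of kept and 38.3% of lost control KLF5 peaks, a difference within strata of −10.6 percentage points (−14.2 to −7.00). RAD21 peaks were found at 28.8% of kept and 29.7% of lost peaks, with −4.90 points (−8.37 to −1.43) within strata. The RAD21 interval held 0 without strata, at −0.971 points (−4.30 to 2.36), and with an FDR under 5% in both lists, at −4.60 points (−9.38 to 0.179). H3K4me1 was found at 85.1% of kept and 77.4% of lost peaks, with 3.25 points (0.521 to 5.98) within strata, and that sign turned in 3 of the other ways of choosing peaks or strata given in the closing section. The interval also held 0 with an FDR under 5% (2.30 points, −1.28 to 5.87), p scores of 100 and above (1.47, −3.81 to 6.75), an overlap of 50% of the narrower peak (1.06, −2.06 to 4.18) and 20 strata (2.67, −0.0762 to 5.41). H3K4me1 is named from the titles alone, because the catalogue number given for that antibody is known for general histone H3.

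MYC of control siRNA was found at 56.7% of kept and 44.4% of lost KLF5 peaks, and within strata the difference was 1.36 points (−2.39 to 5.10). NIPBL was found at 49.2% of kept and 37.2% of lost peaks, with 1.32 points (−2.43 to 5.06) within strata. HNF4A was found at 30.6% of kept and 23.2% of lost peaks, with 1.43 points (−2.06 to 4.91) within strata. For CTCF, JUND, REST and RFX2 the interval within strata also held 0. For MYC, the labels give a catalogue number known for a mouse antibody although the title says rabbit, a doubt that all MYC values here carry.

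Under siRAD21, the other factors and the cohesin loader were found more often at kept than at lost KLF5 peaks. JUND was found at 56.2% of kept and 24.9% of lost peaks, 27.5 points (23.7 to 31.2) apart within strata. NIPBL was found at 42.1% of kept and 12.6% of lost peaks, 26.7 points (23.1 to 30.3) apart. MYC stood at 39.1% of kept and 15.9% of lost peaks (19.7 points within strata), and HNF4A at 35.1% and 13.9% in the same order (18.2 points). H3K4me1 was found at 94.7% of kept and 76.9% of lost peaks, 12.8 points (10.8 to 14.7) apart within strata.

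The cohesin subunits and CTCF had smaller differences between the classes under siRAD21. RAD21 was found at 22.2% of kept and 12.7% of lost peaks, 8.86 points (5.75 to 12.0) apart within strata, and SMC3 at 13.6% of kept and 8.10% of lost peaks, 5.69 points (3.12 to 8.27) apart. CTCF was found at 24.5% of kept and 20.4% of lost peaks, and the difference within strata, 2.73 points, had an interval that held 0 (−0.549 to 6.0). REST differed by 3.11 points and RFX2 by 1.4 points within strata, both targets found at under 5% of KLF5 peaks. All targets but CTCF and RFX2 were called against the same siRAD21 rabbit IgG library as KLF5, and the part of that shared background in these differences was not tested. The siRAD21 JUND library was also the deeper of its pair, with 15263937 filtered tags under siRAD21 and 7558614 under control siRNA, while NIPBL had 7006171 and 19926326 in the same order.

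**Figure D3:**
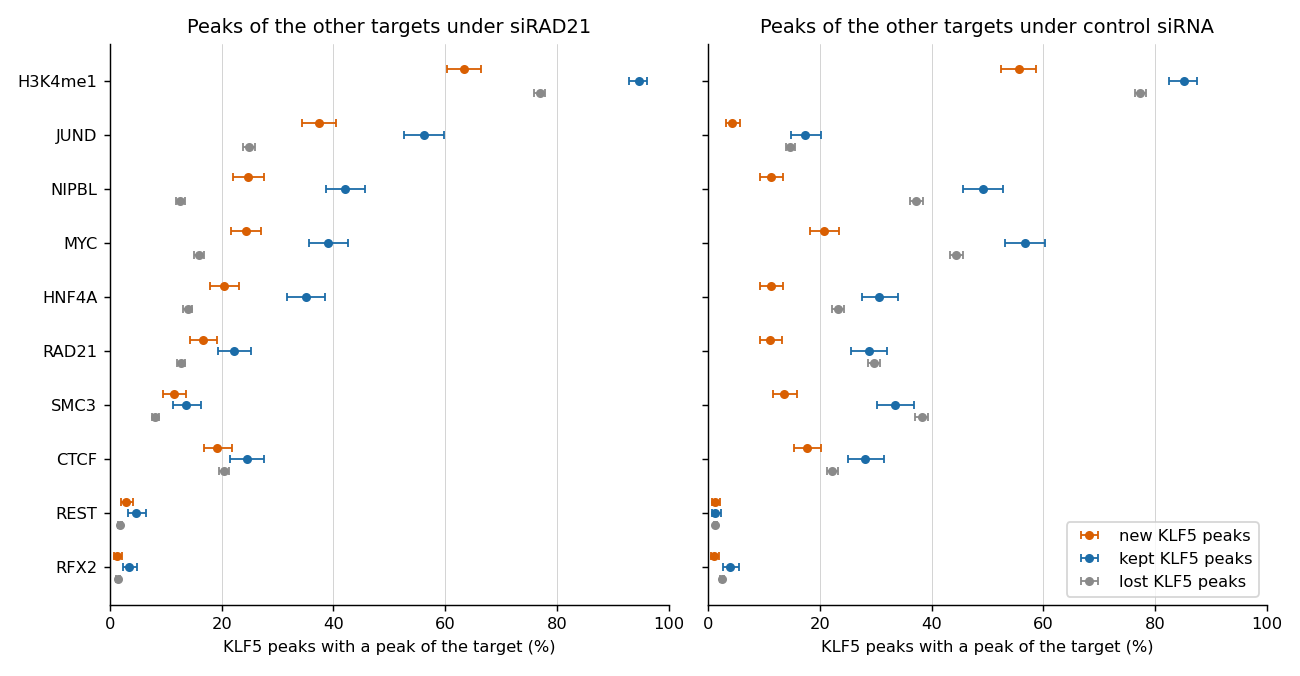
Percentage of new, kept (control list) and lost KLF5 peaks that overlap a peak of each other target, for targets under siRAD21 (left) and control siRNA (right), with 95% Clopper-Pearson intervals. Under siRAD21 JUND is found at 56.2% of kept and 24.9% of lost peaks, and under control siRNA at 17.4% of kept and 14.7% of lost peaks.

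The narrower requirement that the summits of both targets lie within 250 bp gave lower shares, and the order of kept and lost peaks held for every target of siRAD21 except H3K4me1 and CTCF. JUND of siRAD21 was then found at 38.3% of kept and 15.1% of lost KLF5 peaks, NIPBL at 29.1% of kept and 7.99% of lost peaks, and HNF4A at 20.8% of kept and 7.93% of lost peaks. For H3K4me1 of siRAD21 the shares were 11.9% of kept and 16.0% of lost peaks, and for CTCF 8.83% of kept and 9.99% of lost peaks.

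Where JUND, HNF4A, MYC or NIPBL shared the control KLF5 site, that target was found again under siRAD21 more often if KLF5 was kept. JUND was found again at 73.2% of the 138 kept KLF5 sites that had it and at 43.6% of the 1029 lost ones. HNF4A was found again at 60.5% of 243 kept and 39.0% of 1625 lost sites, and MYC at 50.2% of 450 kept and 28.0% of 3106 lost sites. NIPBL was found again at 45.1% of 390 kept and 18.9% of 2606 lost sites. Within strata of the KLF5 p score these differences were 28.4 points for JUND, 21.7 for HNF4A, 21.8 for MYC and 25.7 for NIPBL, and none of the 4 intervals held 0. The strata match neither the width of the KLF5 peak nor the strength of the other target's own peak. The part of these and of the shared IgG background was not tested. Over their whole control lists, 35.1% of JUND, 33.4% of HNF4A, 28.9% of MYC and 17.4% of NIPBL peaks were overlapped by a siRAD21 peak of their target. These whole-list shares are a different measure. They count the target's own peaks, while the shares at KLF5 sites count KLF5 peaks that overlap any siRAD21 peak of the target.

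For the cohesin subunits the differences were smaller in size, and for CTCF the interval held 0. RAD21 was found again at 39.0% of 228 kept and 32.0% of 2080 lost sites (10.0 points within strata, 3.19 to 16.8), and SMC3 at 24.2% of 265 kept and 18.2% of 2677 lost sites (9.11 points, 3.64 to 14.6). Over the whole of their own control lists 46.6% of RAD21 and 28.4% of SMC3 peaks were kept. These whole-list shares and those that follow count the target's own peaks and not KLF5 sites, which is a different measure. CTCF was found again at 58.7% of 223 kept and 67.2% of 1557 lost KLF5 sites, and the difference within strata was −5.45 points with an interval that held 0 (−12.6 to 1.72), beside 63.1% of the whole CTCF list. H3K4me1 was found again at 97.8% of kept and 90.6% of lost sites, against 74.3% of its whole list.

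Targets also appeared at KLF5 sites that had lacked them. A JUND peak was found under siRAD21 at 52.7% of the 655 kept KLF5 sites without control JUND, and at 21.7% of the 5969 lost ones. A NIPBL peak appeared at 39.2% of kept and 8.81% of lost sites without control NIPBL, and a MYC peak at 24.5% of kept and 6.35% of lost sites. RAD21 appeared at 15.4% of kept and 4.53% of lost sites without control RAD21. These shares are without strata, and kept peaks were wider than lost ones (medians of 1979 and 1449 bp). The whole JUND list had 4678 control and 12319 siRAD21 peaks. Over whole siRAD21 lists, 13.3% of JUND, 33.7% of NIPBL, 54.9% of MYC and 86.3% of RAD21 peaks were found in the control list.

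**Figure D4:**
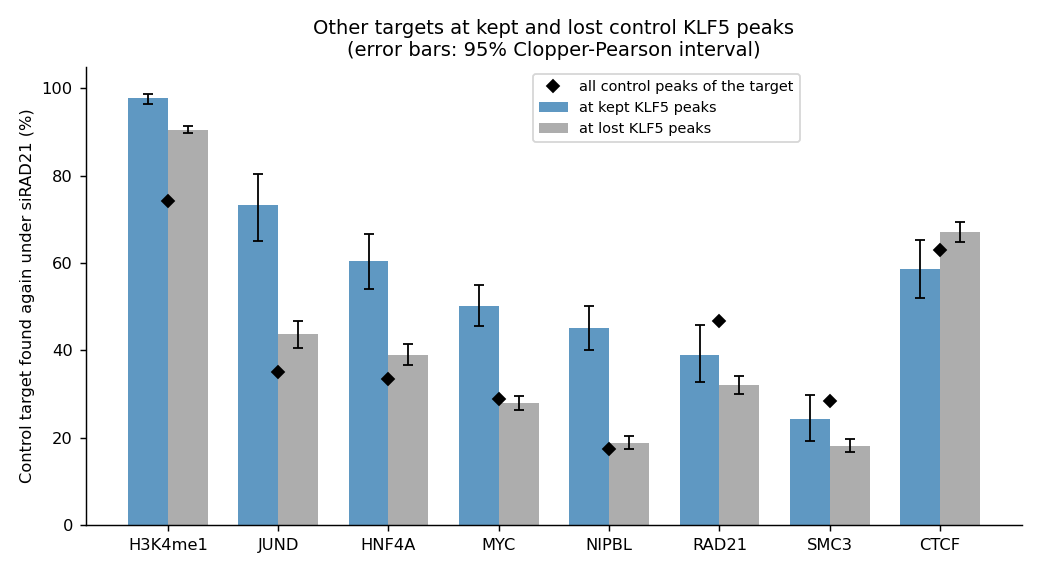
Percentage of control sites shared by KLF5 and another target at which that target was found again under siRAD21, for kept and lost KLF5 sites, with 95% Clopper-Pearson intervals and diamonds for all control peaks of the target. The diamonds count the target's own peaks and the bars count KLF5 sites, which are different measures. JUND was found again at 73.2% of kept and 43.6% of lost sites, and CTCF at 58.7% of kept and 67.2% of lost sites.

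Several other targets were found less often at new than at kept KLF5 peaks. Under siRAD21, H3K4me1 was found at 63.4% of new and 94.4% of kept siRAD21 peaks, JUND at 37.4% of new and 55.1% of kept peaks, and NIPBL at 24.7% of new and 40.8% of kept peaks. Within strata of the siRAD21 p score the difference was −29.3 points for H3K4me1, −13.8 for JUND and −11.4 for NIPBL, with no interval that held 0. For RAD21 (−1.45 points), SMC3 (−0.185) and CTCF (−1.89) the intervals held 0. No other target of siRAD21 was found at 313 of the 977 new peaks (32.0%) and at 17 of the 804 kept siRAD21 peaks (2.11%). In the control list this held for 16 of the 793 kept peaks (2.02%) and 1184 of the 6998 lost peaks (16.9%). These shares are without strata. The median width was 920 bp for new peaks, against 1979 bp for kept and 1449 bp for lost control peaks.

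The sites of new peaks also had fewer other targets under control siRNA. MYC of control siRNA was found at 20.7% of new and 56.2% of kept siRAD21 peaks, RAD21 at 11.2% of new and 27.9% of kept, and JUND at 4.30% of new and 16.4% of kept peaks. At 349 new peaks (35.7%) no other target was found under control siRNA, and at 65 of these some target was found under siRAD21. The other 284 (29.1% of new peaks) had none of the 10 other targets under either siRNA. These 284 had a median of 8 tags and 896 bp, and 78 of them (27.5%) had an FDR under 5%. Among lost peaks, 608 (8.69%) had no other target under either siRNA. Lost peaks were wider than new ones (medians of 1449 and 920 bp), and the part of width in these shares was not tested.

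The kept share ranged more widely over the number of other targets at a KLF5 site when these were counted under siRAD21. Of control KLF5 peaks with none of the 10 other targets under siRAD21, 1.33% were kept, and the share was higher at each larger number of targets, up to 35.8% with 7 to 10. These shares are without strata, and the peaks with more targets were wider and stronger. The median width was 1105 bp with none and 2075.5 bp with 7 to 10, and the median p score 63.9 and 100 in the same order. Counted under control siRNA, 4.10% of peaks with no other target and 13.3% of those with 7 to 10 were kept, with 9.52% to 12.6% for 1 to 6 targets. Within strata of p score, the kept share with 1 to 3 control targets was 3.77 points (2.25 to 5.28) above that with none. The interval of that difference held 0 with an FDR under 5% (1.69 points, −0.0309 to 3.40), p scores of 100 and above (0.918, −2.83 to 4.67), equal numbers of peaks (1.26, −8.24 to 10.8) and the summit rule (−0.174, −1.45 to 1.11). With 7 to 10 control targets the difference from none was 1.18 points and its interval held 0 (−2.20 to 4.56). The share of new peaks in the siRAD21 list was 88.4% with no control target and 14.0% with 7 to 10. Counted under siRAD21 it was 94.8% with no other target, 37.9% with 3 and 58.1% (48.1 to 67.7) with 7 to 10, an interval that held the 54.9% of the whole list.

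**Figure D5:**
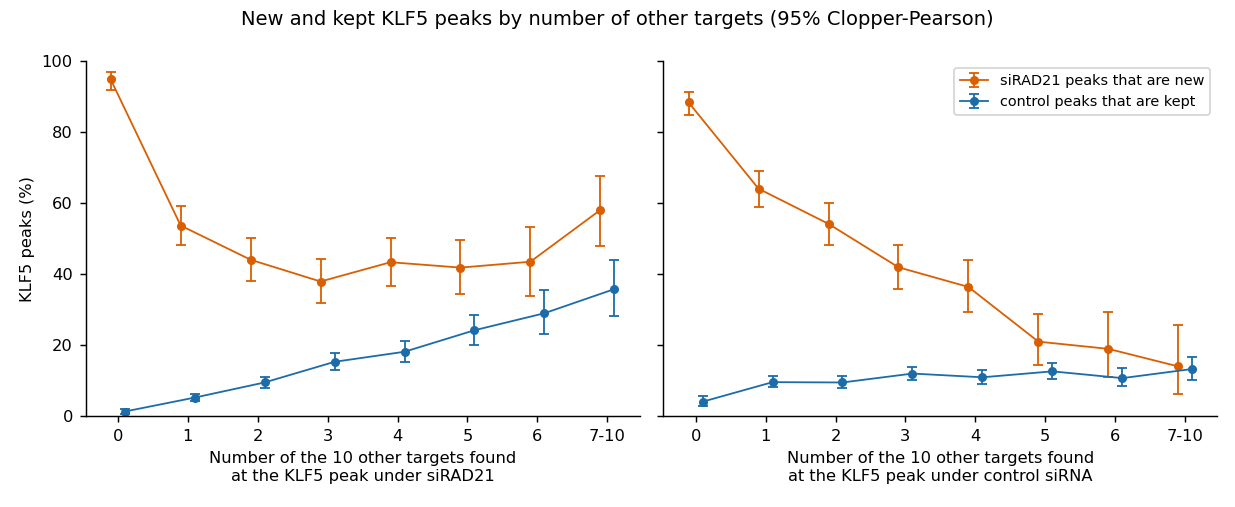
Percentage of siRAD21 KLF5 peaks that are new and of control KLF5 peaks that are kept, by the number of the 10 other targets found at the peak under siRAD21 (left) and control siRNA (right), with 95% Clopper-Pearson intervals. Kept shares, without strata, run from 1.33% to 35.8% on the left and from 4.10% to 13.3% on the right.

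Split by what else was bound under control siRNA, KLF5 peaks with CTCF but neither cohesin subunit had the highest kept share, 19.3% of 445, or 7.59 points (4.03 to 11.1) above the rest within strata. These peaks also had the highest median width (1858 bp) and tags (62) of the classes, which strata of p score do not match. KLF5 peaks with cohesin and without CTCF numbered 2008, of which 8.86% were kept, a difference of −3.39 points from the rest (−4.81 to −1.96). With cohesin and CTCF together 10.3% of 1335 were kept, and the difference from the rest had an interval that held 0. Of 302 peaks with NIPBL or another factor and no H3K4me1, cohesin or CTCF, 14.9% were kept. Of 1696 with H3K4me1 and NIPBL or a factor 12.4% were kept, and of 1128 with H3K4me1 alone 8.87%. Within strata these 3 classes differed from the rest by 4.26 points (0.372 to 8.16), 2.18 (0.523 to 3.84) and 1.33 (−0.412 to 3.07) in that order. The 877 peaks with none of the 10 targets had a median of 20 tags and a kept share of 4.10%, or −3.21 points (−4.62 to −1.80) from the rest within strata.

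On most chromosomes the kept share lay within counting error of that of the list. Over the 23 chromosomes with at least 50 control KLF5 peaks the share ran from 5.91% on chromosome X to 15.4% on chromosome 19, with a median of 9.47%, and on 21 of them the interval held the share of the whole list. Chromosome 19 kept 76 of 492 peaks (12.4 to 18.9%), 4.89 points (1.79 to 7.98) above the rest within strata. The interval of that difference held 0 with an FDR under 5% in both lists (2.73 points, −0.101 to 5.57) and with p scores of 100 and above (1.16 points, −2.70 to 5.02). The chromosome held 7.13% of the siRAD21 and 6.31% of the control KLF5 list, and 3.64% of the control peaks of the other targets. Chromosome 1 kept 95 of 741 peaks, 12.8% (10.5 to 15.4), and chromosome 18 kept 10 of 148, 6.76% (3.29 to 12.1). HNF4A kept 45.3% of its control peaks on chromosome 19, against 33.4% over its whole list. MYC kept 33.2% there, against 28.9% over its whole list, and slightly more on chromosomes 16 (33.6%), 17 (33.4%) and 22 (33.3%). Chromosome 19 was singled out as the highest for KLF5, a choice that its interval does not take into account.

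KLF5 peaks were kept less often than those of HNF4A and MYC, factors called against the same IgG libraries. The kept share of control peaks was 10.2% for KLF5, 33.4% for HNF4A and 28.9% for MYC, with siRAD21 to control tag ratios of 0.355, 0.558 and 1.02 in that order. With the 500 strongest peaks from each list of a factor, 25.4% (21.6 to 29.5) of KLF5 peaks were kept, 48.0% (43.5 to 52.5) of HNF4A peaks and 40.8% (36.5 to 45.3) of MYC peaks. Among control peaks with p scores from 50 to 100 the kept share was 4.77% for KLF5, 14.5% for HNF4A and 17.1% for MYC, and from 400 upwards 64.5%, 92.3% and 87.0% in that order. The siRAD21 peaks found in the control list made up 45.1% of KLF5, 52.7% of HNF4A and 54.9% of MYC peaks. KLF5 had the lowest kept share in each of these sets, and also the lowest tag ratio, whose part in the difference was not tested.

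KLF5 sites that also had HNF4A or MYC were stronger and were kept more often, and with strength matched the differences lay within counting error. Control KLF5 peaks with both factors under control siRNA were kept in 14.3% of 1229 cases, those with HNF4A alone of the 2 in 10.5% of 639, those with MYC alone of the 2 in 11.8% of 2327 and those with neither in 7.68% of 3596. Their median p scores were 102, 75.2, 85.6 and 68.8 in that order. Within strata, the difference of each class from the rest had an interval that held 0.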

How the data were processed

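The submitters' processing notes name CASAVA 1.4, BWA, MACS 1.4 and the hg18 build. Per the file headers, the authors ran MACS 1.4.0rc2 on single libraries at a p cutoff of 1e-05 and kept 1 tag per position. Each deposited peak has, per the file headers, a count of tags, a p score (−10 × log10 p), a fold enrichment (a ratio of tags to the IgG background) and an FDR in percent. The FDR was read from an unnamed column, whose number of values under 5 equals the number the labels give in all 22 lists.

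Computed here in Python 3.11.15 with numpy 2.4.6 and scipy 1.17.1 (figures with matplotlib 3.10.9) were overlaps of at least 1 bp, Clopper-Pearson intervals of shares, order-statistic intervals of medians, and differences in share over 5 strata of p score with Mantel-Haenszel weights. No test between libraries was made. The overlap search and the strata were tested on simulated data. Named regions are the 5 strongest kept peaks by p score, the 5 strongest lost and new ones with no KLF5 peak of the other siRNA within 1000 bp, the strongest kept and lost peaks with no other control target, the 3 with the most control targets and the 4 nearest the overlap limit. The peaks, classes and lists were chosen with earlier results of these data known. No genome of the files' build was used, so regions carry no gene names or sequences. RAD21 levels after siRNA were not analysed here.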

Additional observations from a re-analysis of the deposited data

How the results depend on the processing

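Results were recomputed under up to 9 other settings each. With an FDR under 5% in both lists the KLF5 peak ratio was 0.125, the kept share 6.64%, the new share 46.5%, the tag difference of kept from lost peaks 57 and that of new from kept peaks −6. With p scores of 100 and above these were 0.0990, 6.17%, 37.7%, 73 and −7, and the width difference 426 bp. With summits within 250 bp the kept share was 8.02% and the new share 64.9%. With the same number of strongest peaks from both lists the kept share was 25.9%, the new share 73.7%, the width difference 238 bp and the tag differences 35 and −7. Without strata, the difference of kept from lost peaks was −0.971 points at RAD21 and 7.75 at H3K4me1 of control siRNA. The H3K4me1 difference, 3.25 points in strata of p score, reversed with summits within 250 bp (−5.92 points, −8.47 to −3.37). Its sign also turned with equal numbers of peaks (−1.23, −5.04 to 2.57) and in strata of width (−0.256, −2.92 to 2.41), but those intervals held 0. The cause was not tested. An overlap of 50% of the narrower peak and leaving out regions with 8 or more targets moved no value beyond its interval.

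For the results that follow, these recomputations were added after seeing the data. The kept share with 1 to 3 control targets exceeded that with none by 1.69 points at FDR under 5% and 0.918 at p scores of 100 and above. The excess was 1.26 with equal numbers and 6.23 without strata. With summits within 250 bp the difference was −0.174, with an interval that held 0 (−1.45 to 1.11). The excess of chromosome 19 was 1.16 points at p scores of 100 and above and 11.3 with equal numbers. KLF5 minus HNF4A in kept share, −23.2 points, was −38.9 at FDR under 5%, −24.4 at p scores of 100 and above, −21.4 by summits and −19.6 with equal numbers. The SMC3 difference of control siRNA stayed negative (−17.9 to −4.84 points) and the JUND difference of siRAD21 positive (22.1 to 33.7) in all 9. No paired analysis was possible because each target had 1 library under each siRNA. The lowest peak of the siRAD21 list had 8 tags and that of the control list 12, so differences among weaker sites were not detectable. These are raw tags of libraries with a siRAD21 to control depth ratio of 0.355. The floors are therefore not on the same scale, and at equal depth the siRAD21 floor is the higher.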
